A study of Glycine max with 24 samples.

Results

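The comparison described here set uninfested leaves of 2 soybean (Glycine max) cultivars side by side on day 1 of an aphid experiment: the aphid-resistant LD05-16060 and the aphid-susceptible SD01-76R. It was chosen from the sample labels, as the 3 arrays of uninfested resistant leaves on day 1 against the 3 arrays of uninfested susceptible leaves on day 1, which makes 6 of the 24 arrays of the series. Leaves of the third trifoliate were taken from plants grown in a chamber. Plants of the infested groups received aphids at the V3 stage, each plant was kept under a net, and the uninfested plants received none. The 24 arrays cover both cultivars, with and without aphids, on day 1 and day 7, with 3 arrays in each of 8 groups. Transcript levels were read on 1-colour Affymetrix arrays as probe sets, that is, sets of short probes designed to a transcript or to several similar ones. The annotation ties 370 probe sets to several genes. Whether a probe set tied to 1 gene also reads transcripts of related genes was not tested. All levels below are on the log2 scale after quantile normalization. A difference is always resistant minus susceptible, with its standard error (SE), and n is 3 arrays per group. Whether an array holds RNA of 1 plant or of several is not stated in the sources used here, and each cultivar is a single line, so what separates these lines need not separate other resistant and susceptible lines.

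Soybean aphids feed on phloem sap, and soybean lines differ in whether they let the insects settle and multiply. LD05-16060 is known to carry Rag1, a dominant aphid resistance locus that maps to chromosome 7. Plants defend leaves with inducible programs: WRKY and NAC transcription factors, jasmonate made from fatty acids by lipoxygenases, pathogenesis-related proteins, and isoflavonoid phytoalexins. Growing leaves use another set of genes, among them expansins and xyloglucan enzymes that loosen the cell wall, GASA peptides that respond to gibberellin, and aquaporins that let water enter expanding cells. The comparison asks how far the cultivars differed in such genes in plants that received no aphids.

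Leaf markers were at the top of the scale in both cultivars. The light-harvesting gene CAB3 read 14.46, 14.40 and 14.38 in resistant and 14.24, 14.16 and 14.30 in susceptible leaves, against a 95th percentile of 11.16 over all values. The seed storage gene GY2 read between 5.36 and 5.83 on the 6 arrays, near the 5th percentile of 5.28. Of the 28 root, nodule and seed genes measured 0 were called, while 11.8% of all named genes were called higher and 9.12% lower. Only 2 of the 28 lay above the median level of all probe sets, so low signal limits what this count can show.

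The 3 susceptible arrays lay at one end of the series. On the first principal component, which held 39.6% of the variance, they scored 109, 69.1 and 75.2, and the next score was 66.2, of infested resistant replicate 2 of day 1. The resistant arrays scored −17.5, −7.22 and 22.6. RNA quality is often read from control transcripts, by how far signal at the 3' end exceeds that at the 5' end. This excess was 1.72, 1.00 and 1.20 on the susceptible and 0.877, 0.738 and 0.884 on the resistant arrays, so the groups did not overlap. Arrays of the other groups ran from 0.723 to 1.504, and the highest was again that of infested resistant replicate 2 of day 1, whose SEO mean was 6.71. The mean level of the sieve element occlusion (SEO) probe sets, which mark phloem, was 6.89 ± 0.45 (SD, n = 3) in susceptible and 5.88 ± 0.33 in resistant leaves. With the 3' minus 5' signal as a covariate, the number of called probe sets fell from 7027 to 1024, and without susceptible replicate 1 it fell to 2240. The 3' minus 5' signal is not a measure of RNA quality alone. For the control SucBP it was 3.43, 1.69 and 2.05 on the susceptible and 0.886, 0.949 and 1.05 on the resistant arrays. The 5' probe set of SucBP averaged 4.81 and 4.64, near the low end, and its 3' probe set 7.30 and 5.59. The level of a control transcript can therefore enter the signal. The parts of RNA quality, of control transcript level and of tissue makeup in the single results were not tested. In whole leaves fewer cells of a type and less RNA per cell cannot be told apart.

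**Figure D1:**
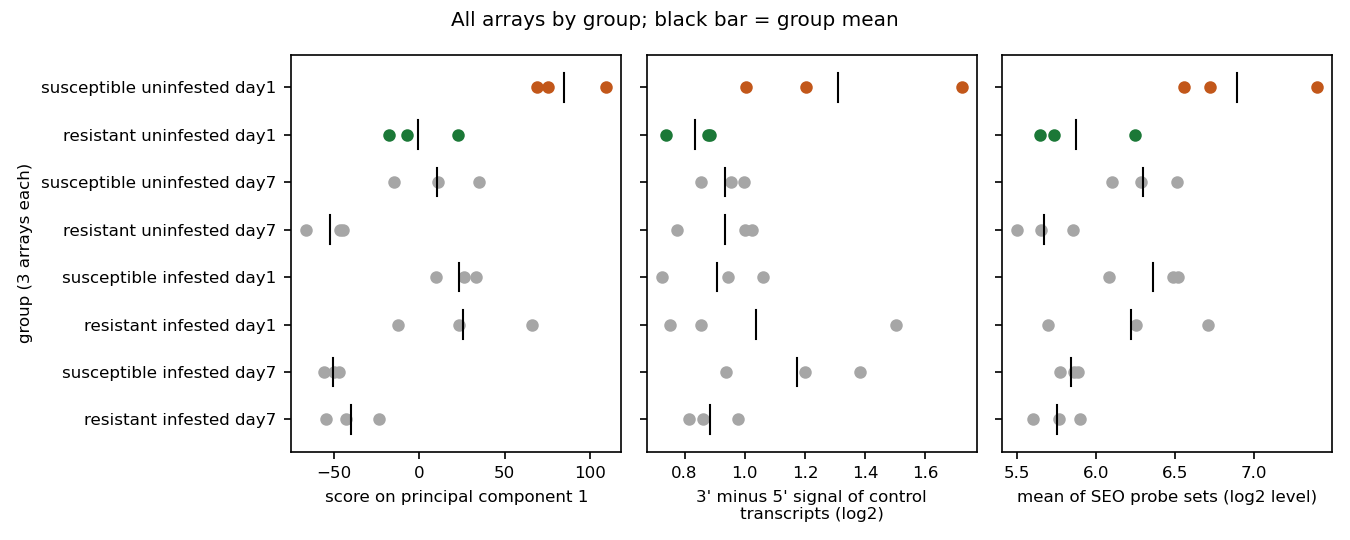
Each point is 1 array of the series, in rows by group (3 arrays each). The horizontal axes show the score on the first principal component, the 3' minus 5' excess of control transcripts (log2) and the mean of the SEO probe sets (log2 level), and black bars are group means. The uninfested susceptible arrays of day 1 (orange) have the 3 highest scores on the first component, at 69.1 to 109, and the uninfested resistant arrays of day 1 (green) lie at −17.5 to 22.6.

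Of 37593 soybean probe sets, 7027 (18.7%) passed an adjusted p of 0.05 in the day 1 comparison of uninfested leaves (limma, Benjamini-Hochberg). In resistant leaves 3348 of them (8.91%) were higher and 3679 (9.79%) were lower. Falls were larger than rises: the median size of a called difference was 0.90 among the lower and 0.73 among the higher probe sets, and differences over 4-fold numbered 320 and 102. The split rests on the scaling, since without scaling 4417 were called and 83.1% of those were higher, against 47.6% here. That alternative shifted the median of all probe sets to 0.20. The 3 arrays of one cultivar all lay above or all below the 3 of the other in 14876 probe sets, 39.6% of those tested. Of the called probe sets 1858 had 1 annotated gene, and 375 of those, from 289 genes, had an informative name. Over all 37593 soybean probe sets 8677 had 1 annotated gene and 1880 an informative name. Most called probe sets, like most of the array, thus have no gene name here.

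Where the called probe sets lay among all 8 groups was uneven. In 3501 of the 3679 lower probe sets (95.2%), uninfested susceptible leaves of day 1 had the highest mean of the 8 groups, compared with 25.8% of all probe sets. In 2973 of the 3348 higher ones (88.8%) that group had the lowest mean, compared with 27.6% of all. With susceptible replicate 1 left out of the means, the shares were 89.5% and 81.5%. Uninfested resistant leaves of day 1 were the highest group in 41.5% of the higher probe sets, compared with 13.2% of all. They were the lowest in 31.7% of the lower ones, compared with 10.9% of all. The calls were made with the same susceptible arrays, so these shares describe the calls and are not a further test.

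**Figure D2:**
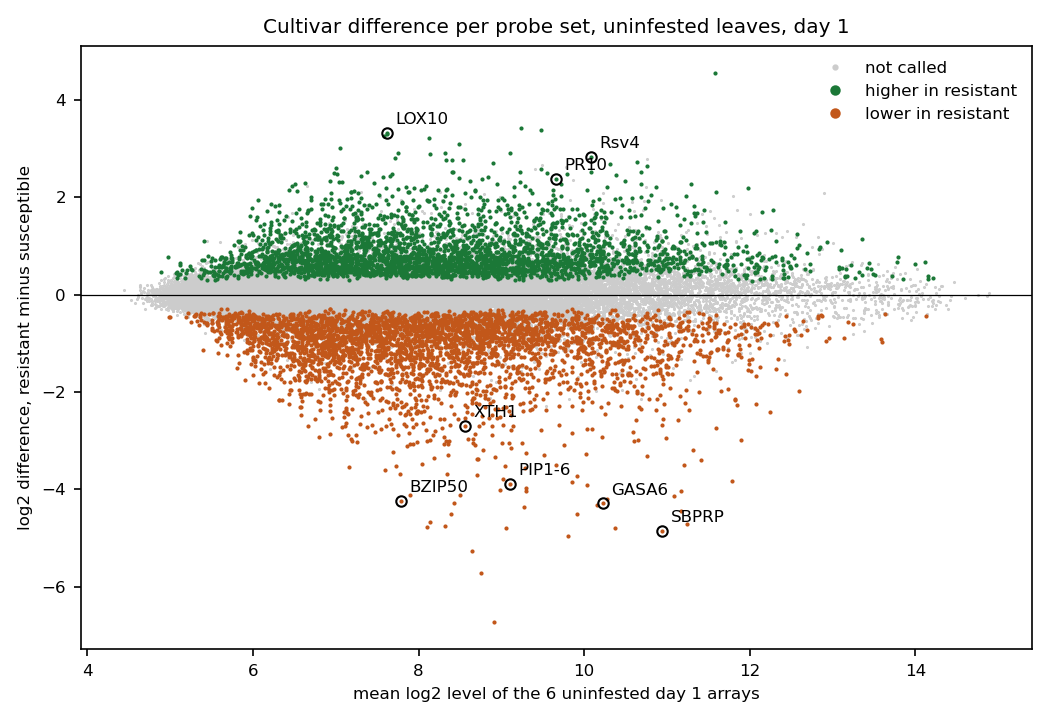
Each point is a soybean probe set, with its mean log2 level over the 6 uninfested day 1 arrays on the horizontal axis and the log2 difference, resistant minus susceptible, on the vertical axis. The 3348 probe sets called higher are green, the 3679 called lower are orange and the rest are grey. Falls reach further from 0 than rises, with 320 against 102 beyond 4-fold.

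Genes of growth and the cell wall were among the largest named falls in resistant leaves. Over all 1129 named genes, with 1 probe set per gene, 103 (9.12%) were called lower and 133 (11.8%) higher. Of 28 measured genes of growth and wall, 13 (46.4%) were lower and 0 higher, and the median difference was −0.63, against 0.06 over all named genes. The proline-rich protein gene SBPRP read 6.98, 6.95 and 11.64 in resistant leaves and 13.85, 13.12 and 13.14 in susceptible leaves, a difference of −4.85 ± 1.16 (adjusted p = 0.00803). Resistant replicate 3 lay far above the other resistant arrays but still below the susceptible ones. GASA genes encode small secreted peptides that respond to gibberellin. GASA6 read 7.03, 6.93 and 10.29 against 12.72, 11.77 and 12.62, and was 19.5-fold lower (adjusted p = 0.00663). GASA3 read 6.86, 7.19 and 7.72 against 11.96, 9.70 and 10.12, a 10.1-fold fall (−3.34 ± 0.47, adjusted p = 0.000435). In GASA6 the gap between resistant replicate 3 and the others repeats what SBPRP showed, while in GASA3 the highest single value was that of susceptible replicate 1. GASA14 fell by 3.50 ± 0.60 in 3 of its 3 probe sets, GASA11 fell by 3.57 ± 0.94 and GASA9 fell by 2.41 ± 0.70. SBPRP, GASA11 and GASA9 did not pass without resistant replicate 1, at −4.07, −3.44 and −2.35 (adjusted p = 0.0543, 0.0541 and 0.0737), and GASA6 was at −2.83 with the covariate (adjusted p = 0.134).

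Wall-loosening enzymes followed the same direction. The expansin gene EXP4 read 8.16, 7.16 and 10.81 against 11.00, 11.56 and 11.84 (−2.76 ± 0.92, adjusted p = 0.0421), so its highest resistant value came close to the lowest susceptible one. It was not called in 9 of 18 alternative fits, and stood at −1.99 without resistant replicate 2 (adjusted p = 0.209). XTH1, a xyloglucan endotransglucosylase/hydrolase gene, read 7.57, 6.66 and 7.44 against 10.65, 9.62 and 9.47, and was 6.47-fold lower (adjusted p = 0.00391). GmCUPIN16.1, of the cupin family, fell by 4.72 ± 1.23, with resistant replicate 3 at 11.25 and the other resistant arrays at 7.70 each, and did not pass without resistant replicate 1 (−4.12, adjusted p = 0.0680). ADR11, first described as an auxin-down-regulated transcript, read 7.07, 6.86 and 7.98 against 12.44, 10.53 and 10.88, a 15.7-fold fall in 2 of its 2 probe sets (adjusted p = 0.00044). Not all members fell: GASA24 stood at a difference of 0.80 ± 0.30 (adjusted p = 0.0689) and the proline-rich gene PRP3 at 0.26 ± 0.13 (adjusted p = 0.169). Of the 28 genes, 3 were still called lower with the 3' minus 5' covariate, 7 without susceptible replicate 1, and 7 without resistant replicate 1 or without resistant replicate 2. Without scaling 9 were lower and 1 was higher.

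Aquaporins, the channels through which water crosses the plasma membrane (PIP) and the vacuole membrane (TIP), were lower in resistant leaves in 10 of 21 measured genes (47.6%, against 9.12% of named genes) and higher in 0. The median difference was −0.80. PIP1-6 read 6.61, 6.71 and 8.17 in resistant and 11.72, 10.42 and 11.00 in susceptible leaves, 14.8-fold lower (−3.88 ± 0.70, adjusted p = 0.00172). GmTIP2;3 averaged 7.18 ± 0.49 (SD) against 10.37 ± 0.70, a difference of −3.19 ± 0.50 that was called in 2 of its 3 probe sets. PIP1-4 fell by 1.40 ± 0.25 (adjusted p = 0.00156). Members that did not pass included PIP2-6 at 0.60 ± 0.25 and PIP2-2 at 0.34 ± 0.25. The count of lower aquaporins was 3 with the covariate, 5 without scaling and 5 without susceptible replicate 1. PIP1-6, GmTIP2;3 and PIP1-4 were among the genes still called in each of these fits, as were ADR11, GASA3 and GASA14.

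Sieve element occlusion (SEO) genes, which mark phloem, were lower as well. Of 9 measured genes of phloem and vascular tissue, 6 (66.7%, against 9.12% of named genes) were called lower, 0 higher, and all 9 had a difference below 0 (median −0.90). SEO proteins form the filaments of sieve elements that plug injured phloem. SEOF read 6.04, 5.99 and 7.42 in resistant leaves and 9.73, 8.40 and 8.32 in susceptible leaves (−2.33 ± 0.51, adjusted p = 0.00467). SEOA read 5.39, 5.83 and 6.90 against 9.22, 7.72 and 7.67 in 1 of its 2 probe sets (−2.16 ± 0.46, adjusted p = 0.00396), and the other probe set stood at 0.11 ± 0.12. SEO-F3 fell by 1.58 ± 0.36, SEOC by 1.33 ± 0.35, SEOM by 0.90 ± 0.28 and SEOP by 0.82 ± 0.20. The called genes given here are all of the SEO family. The sucrose transporter gene SUT1, whose product loads sugar into phloem, lay at −0.46 ± 0.24, −0.39 ± 0.24 and −0.48 ± 0.23 in its 3 probe sets and did not pass. Counts of lower phloem genes were 0 with the covariate, 2 without susceptible replicate 1, 3 without scaling, 4 without resistant replicate 1 and 3 without resistant replicate 2. Among probe sets above the median level only 1 of the 9 genes remained, at −0.48, and 0 were called.

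Several regulators and lipid enzymes fell too. BZIP50, a basic leucine zipper factor gene, read 5.26, 5.51 and 6.25 in resistant leaves against 10.79, 9.24 and 9.70 in susceptible leaves (−4.24 ± 0.64, adjusted p = 0.000594), and its other probe set fell by 2.56 ± 0.40. BZIP48 read 5.36, 5.37 and 5.78 against 9.66, 7.56 and 7.88 (−2.87 ± 0.46). The resistant levels of both lay within 0.5 of the 5th percentile, where signal over background is uncertain, and folds are left out for that reason. FAD8.2 and FAD3B, genes for desaturases that make trienoic fatty acids, fell by 1.86 ± 0.41 and 1.30 ± 0.33. Neither passed with the covariate (adjusted p = 0.0869 and 0.208). FAD7-2 of the same list stood the other way at 1.21 ± 0.55 and did not pass (adjusted p = 0.133). Of the 14 genes of fatty acid desaturation and lipids 4 (28.6%, against 9.12% of named genes) were lower and 1 was higher. Of the flavonoid branch, the flavanone 3-hydroxylase gene F3H read 9.18, 9.55 and 9.82 against 12.32, 11.06 and 11.18 with no overlap (adjusted p = 0.00157), and FLS1, for flavonol synthase, fell by 1.37 ± 0.29. The carotenoid hydroxylase gene CYP97C10 fell by 1.74 ± 0.44 and the tubulin gene TUBB3 by 1.22 ± 0.27. Without susceptible replicate 1, CYP97C10 (−1.53, adjusted p = 0.0684) and FAD3B (−0.90, adjusted p = 0.0916) did not pass. Of 27 flavonoid and isoflavonoid genes 3 (11.1%) were called lower and 3 higher, close to the shares over all named genes. By probe set 8 of 56 (14.3%) were lower and 4 (7.14%) higher, against 9.79% and 8.91% of all soybean probe sets.

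Transcription factors of the WRKY family, which bind promoters of defence genes, stood on the other side. Of 53 measured WRKY genes, 15 (28.3%, against 11.8% of named genes) were called higher in resistant leaves and 0 lower, 47 had a difference above 0, and the median was 0.58. Over all 104 WRKY probe sets 35 (33.7%) were higher, against 8.91% of all soybean probe sets. WRKY30 read 10.50, 9.31 and 10.33 in resistant leaves and 5.73, 8.57 and 8.58 in susceptible leaves (2.42 ± 0.75, adjusted p = 0.0306). WRKY56 read 9.52, 9.50 and 8.61 against 5.34, 7.91 and 7.65 (2.24 ± 0.56, adjusted p = 0.0103). In both genes susceptible replicate 1 was far below the other susceptible arrays. Without that array neither passed, at 1.47 for WRKY30 (adjusted p = 0.222) and 1.43 for WRKY56 (adjusted p = 0.0843). WRKY22 differed less but more evenly, with 8.79, 8.49 and 8.08 against 7.34, 7.19 and 7.26 (1.19 ± 0.19, adjusted p = 0.000876), and rose in 4 of its 5 probe sets. Of the 53 genes, 1 was called higher with the covariate, 2 without susceptible replicate 1 and 4 without resistant replicate 1 or without resistant replicate 2. WRKY22 was still called in each of these fits.

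NAC factors, which act in stress and senescence programs, rose in 5 of 20 measured genes (against 11.8% of named genes) and fell in 0, with a median of 0.86. By probe set 8 of 41 (19.5%) were called, near the 18.7% of all soybean probe sets. NAC34 read 10.36, 11.13 and 9.97 against 7.10, 8.78 and 8.03, a 5.72-fold rise (adjusted p = 0.00362) in 1 of its 3 probe sets. NAC26 read 9.04, 9.29 and 8.01 against 5.71, 6.73 and 6.64 (2.42 ± 0.57, adjusted p = 0.00759). NAC1 read 7.71, 7.90 and 7.16 against 5.05, 5.92 and 5.43, and its susceptible levels were too near the low end for a fold. Members that did not pass included NAC19 at −0.33 ± 0.27 and NAC23 at −0.12 ± 0.16. Without susceptible replicate 1, NAC26 (2.10, adjusted p = 0.0565) and NAC1 (1.92, adjusted p = 0.0843) did not pass. The count of higher NAC genes was 0 with the covariate, 1 without susceptible replicate 1, 3 without resistant replicate 1 and 2 without resistant replicate 2, against 8 without scaling.

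Other regulators differed family by family. Of 64 bZIP genes 15 (23.4%, against 11.8% of named genes) were higher and 6 (9.38%, near the 9.12% of named genes) were lower. With the covariate these were 4 and 2, and without susceptible replicate 1 7 and 3. BZIP130 averaged 8.16 ± 0.20 (SD) against 6.86 ± 0.21 (1.30 ± 0.16, adjusted p = 0.000159), with little spread in either group. BZIP110 rose by 1.91 ± 0.28. Of 70 MYB genes 7 were higher and 1 lower, and by probe set 15.7% were called, so as a family they did not exceed the background. MYB139 read 9.47, 9.72 and 8.17 against 6.14, 6.61 and 6.21 (2.80 ± 0.56), and MYB184 11.05, 10.39 and 9.31 against 5.55, 8.84 and 8.23 (2.71 ± 0.84). MYB184 stood at 1.72 without susceptible replicate 1 (adjusted p = 0.219) and at 0.91 with the covariate (adjusted p = 0.500). SCOF-1, for a zinc finger protein induced by cold, rose by 1.61 ± 0.45 in 3 of 3 probe sets, the heat shock factor gene HSF-01 by 1.57 ± 0.29 in 2 of 2, and DREB2 by 1.26 ± 0.30 in 1 of 2. SCOF-1 (1.38, adjusted p = 0.106) and DREB2 (0.94, adjusted p = 0.0713) did not pass without susceptible replicate 1. Of 21 genes of calcium and kinase signalling 5 (23.8%) were higher and 0 lower, while by probe set 18.9% were called, as of all soybean probe sets. Both with the covariate and without susceptible replicate 1, 2 of these genes were higher. One that was called in each of 18 alternative fits was CDPK, a calcium-dependent protein kinase gene that read 9.29, 9.11 and 8.75 against 7.58, 7.72 and 7.87 (1.32 ± 0.20, adjusted p = 0.000679).

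**Figure D3:**
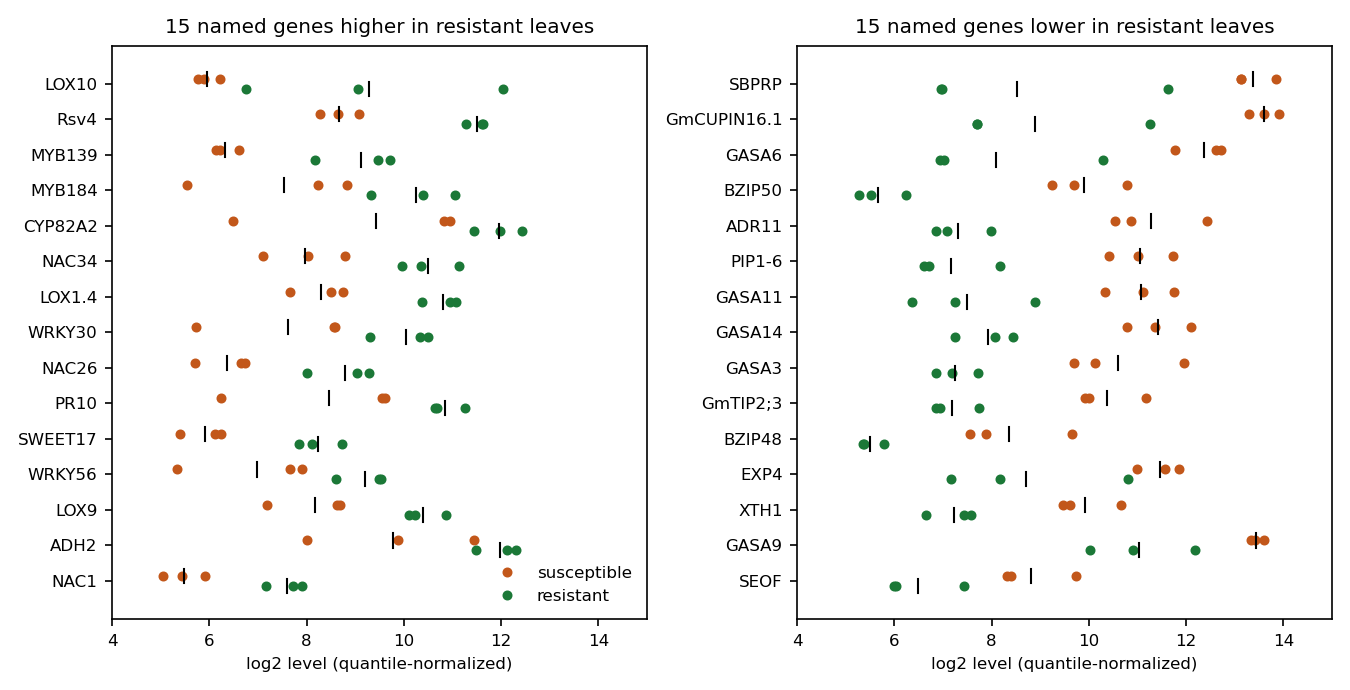
Each row is 1 of the 15 named genes with the largest called rise (left) or fall (right) whose arrays did not overlap. The horizontal axis is the log2 level after quantile normalization, points are the 3 arrays of each cultivar and black bars are group means. Susceptible replicate 1 is the low point of PR10 (6.24) and WRKY30 (5.73), and resistant replicate 3 is the high point of SBPRP (11.64) and GASA6 (10.29).

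Lipoxygenases oxidise polyunsaturated fatty acids, which is the first step toward jasmonate and toward leaf volatiles. Of 16 genes of jasmonate synthesis 4 were higher (against 11.8% of named genes) and 0 lower, with a median difference of 0.36. LOX10 read 12.04, 9.06 and 6.75 in resistant leaves and 5.77, 5.88 and 6.21 in susceptible leaves (3.33 ± 1.12, adjusted p = 0.0429), so the resistant arrays themselves spanned over 5 log2 units. It was not called in 10 of 18 alternative fits, and stood at 1.95 without resistant replicate 1 (adjusted p = 0.262). LOX1.4 was steadier at 11.07, 10.94 and 10.37 against 7.66, 8.74 and 8.51 (2.49 ± 0.53, adjusted p = 0.00422), and rose in 4 of its 5 probe sets. LOX9 rose by 2.23 ± 0.58 in 2 of 5 probe sets, and the allene oxide synthase gene AOS2 by 1.18 ± 0.40. LOX9 was at 1.74 without susceptible replicate 1 (adjusted p = 0.0979). LOX2 (−0.14 ± 0.12) and the allene oxide cyclase gene AOC2 (−0.16 ± 0.25) did not pass. Without susceptible replicate 1, 1 gene of this list was called, and with the covariate 1 was called and the median was −0.0039. Of 7 genes of jasmonate response 0 were called in either direction. By probe set this was 0 of 22, against 18.7% of all soybean probe sets.

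Single genes of defence products were higher in resistant leaves, but few members of their lists passed. PR10, for a pathogenesis-related protein, read 11.25, 10.68 and 10.64 in resistant leaves and 6.24, 9.55 and 9.62 in susceptible leaves (2.38 ± 0.75, adjusted p = 0.0321). Its susceptible replicate 1 lay over 3 log2 units below the other susceptible arrays, and without that array the difference was 1.27 and did not pass (adjusted p = 0.241). The cytochrome P450 gene CYP82A2 had the same shape, 12.43, 11.98 and 11.44 against 6.49, 10.95 and 10.83, and stood at 1.06 without that array (adjusted p = 0.260). Of 14 genes of salicylate signalling and pathogenesis-related proteins 3 (21.4%) were higher and 0 lower, while by probe set 19.0% were called, near the background. Of these genes 0 were called higher with the covariate or without susceptible replicate 1. All 12 genes of the list of phenylpropanoid entry and lignin had a difference above 0 (median 0.82), but 2 of 12 (16.7%, against 11.8% of named genes) passed. One was PTS1, at 9.94, 9.78 and 9.17 against 6.79, 8.32 and 8.55. It encodes a pterocarpan synthase of phytoalexin formation, which is not a step of phenylpropanoid entry or lignin. PTS1 is nevertheless counted in the 12, in the median and in the 2, so these do not describe that branch alone. The other was the cinnamoyl-CoA reductase gene CCR, at 10.98 ± 0.34 (SD) against 9.32 ± 1.18. Neither passed with the covariate or without susceptible replicate 1. Isoflavonoid genes that rose were IF7MaT, for a malonyltransferase of isoflavone glucosides (1.77 ± 0.52), the isoflavone reductase gene IFR (1.95 ± 0.63) and the chalcone reductase gene CHR4 (0.74 ± 0.21). IF7MaT stood at 1.04 without susceptible replicate 1 (adjusted p = 0.180) and 0.88 with the covariate (adjusted p = 0.356), and in both fits 0 genes of its list were called higher. IF7MaT and CHR4 were each not called in 6 of 18 alternative fits. CHI3A1 of the same list fell by 1.32 ± 0.21 (adjusted p = 0.000841) and was called in each of the 17 fits that included it. Resistance and receptor protein genes went mostly the other way. Of 11 measured, 4 (36.4%, against 9.12% of named genes) were lower and 1, Rsv4, was higher. Without scaling 0 of them were lower and 2 higher.

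Genes of sugar and amino acid supply were called about as often as named genes at large. Of 25 genes 3 (12%) were higher and 2 (8%) lower, against 11.8% and 9.12% of named genes, with a median of −0.0044. By probe set 26.8% were called, against 18.7% of all soybean probe sets. SWEET17, of a sugar transporter family, read 8.73, 8.11 and 7.83 against 5.40, 6.11 and 6.25 (2.31 ± 0.66, adjusted p = 0.0208) in 2 of its 2 probe sets, but did not pass without susceptible replicate 1 (2.05, adjusted p = 0.106). SWEET31, of the same family, fell by 1.10 ± 0.19 (adjusted p = 0.00128) and SS by 1.04 ± 0.17 (adjusted p = 0.00112), and both were called in each of the 17 alternative fits that included them. The alcohol dehydrogenase gene ADH2 averaged 11.97 ± 0.43 (SD) against 9.77 ± 1.72, with the highest susceptible value just below the lowest resistant one. Without susceptible replicate 1 it stood at 1.32 (adjusted p = 0.189). GDH1, for glutamate dehydrogenase, rose by 1.41 ± 0.25 in 3 of 4 probe sets and GS1alpha, for a cytosolic glutamine synthetase, by 1.12 ± 0.25 in 1 of 2. APX2, for an ascorbate peroxidase, rose by 1.56 ± 0.31 and GSTF5, for a glutathione transferase, by 0.86 ± 0.16. Of 54 redox and detoxification genes 10 (18.5%) were higher and 5 (9.26%) lower, and by probe set 20.7% were called, near the 18.7% of all. The 10 became 1 with the covariate and 3 without susceptible replicate 1.

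**Figure D4:**
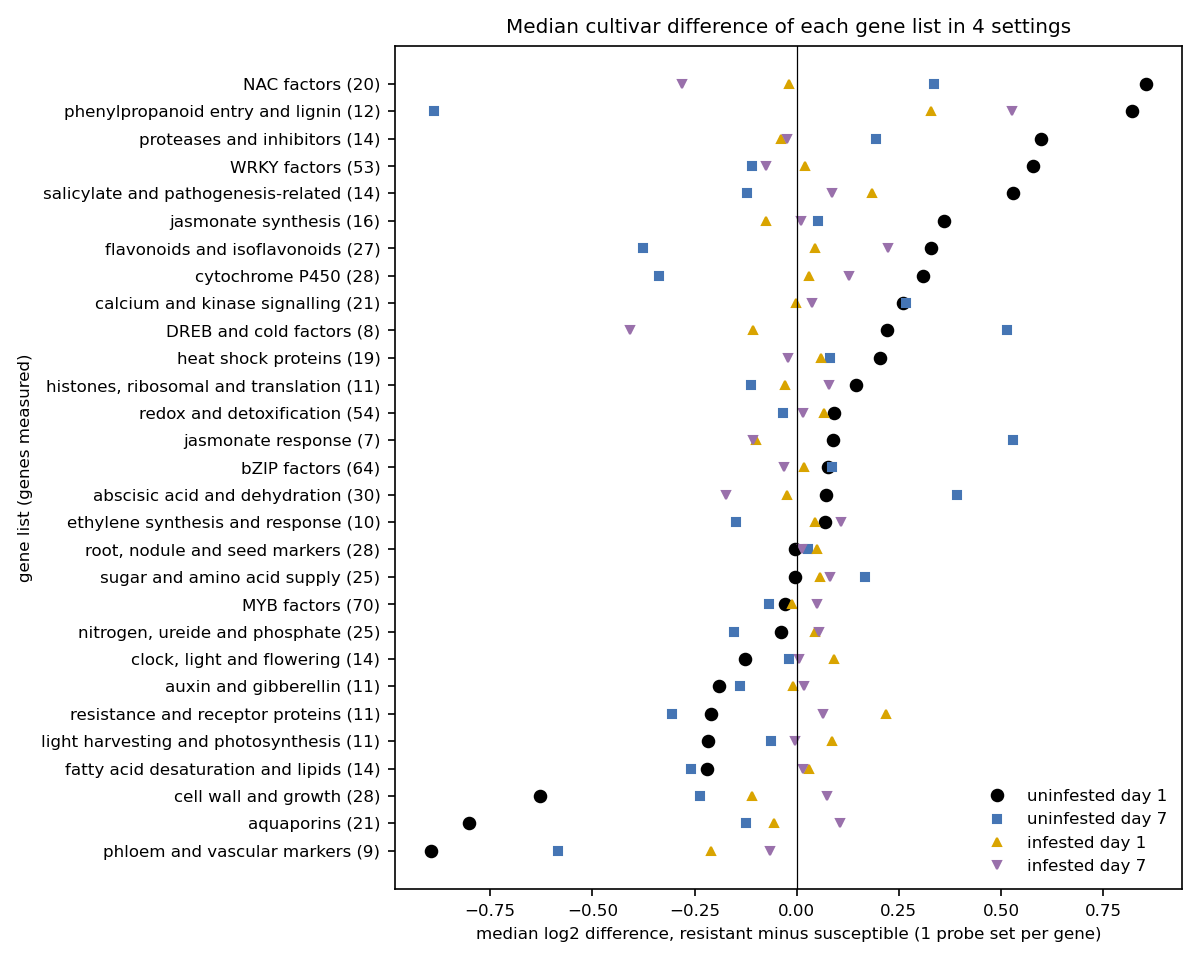
Rows are gene lists with the number of genes measured, using 1 probe set per gene. The horizontal axis is the median log2 difference, resistant minus susceptible, and symbols mark the 4 settings. In uninfested leaves of day 1 (black) the medians run from −0.90 in phloem genes to 0.86 in NAC factors, and those of infested leaves lie nearer to 0 in both of these lists.

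The same pair of cultivars was compared in 3 further settings, none of which shares an array with the uninfested leaves of day 1. In uninfested leaves of day 7, 856 probe sets (2.28%) were called, in infested leaves of day 1 52 (0.138%), and in infested leaves of day 7 60 (0.16%). The WRKY median, 0.58 in uninfested leaves of day 1, was −0.11, 0.02 and −0.08 in these settings. For aquaporins it was −0.80 and then −0.12, −0.05 and 0.11, and for growth and cell wall genes −0.63 and then −0.24, −0.11 and 0.07. For the phenylpropanoid list, which includes PTS1, it was 0.82 and then −0.89, 0.33 and 0.53. Phloem genes kept a median below 0 throughout, at −0.90, −0.58, −0.21 and −0.06.

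Of the day 1 calls, 316 (4.50%) were also called in the same direction in uninfested leaves of day 7, which is 36.9% of the calls of that setting. With infested leaves of day 1 they shared 44 (0.626% and 84.6%), and with infested leaves of day 7 40 (0.569% and 66.7%). The sign of the difference was the same in uninfested leaves of day 7 for 80.1% of the day 1 calls, against 62.4% of all probe sets. In infested leaves it was the same for 54.3% on day 1 and 46.3% on day 7, against 50.2% and 49.0% of all probe sets. Apart from Rsv4 and MET2, the named genes called in both uninfested settings were WRKY22 (1.02 ± 0.19 on day 7), BZIP130 (0.77 ± 0.16), DREB2 (1.41 ± 0.30), the phosphatase gene PAP25 (0.91 ± 0.17), FAD8.2 (−1.66 ± 0.41), the floral regulator gene AG1 (−1.89 ± 0.36) and PHR20 (−0.78 ± 0.20).

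Whether the day 1 difference itself departed from that of another setting was tested directly. Against the mean of the other 3 settings, 2045 probe sets (5.44%) differed, 798 (2.12%) above and 1247 (3.32%) below it. Against infested leaves of day 7 alone 1625 (4.32%) differed, and against infested leaves of day 1 alone 333 (0.886%). Against uninfested leaves of day 7, 0 differed by limma at an adjusted p of 0.05, with 6091 at an unadjusted p under 0.05. These counts rest on single arrays. The 2045 became 7 without resistant replicate 1, 11 without resistant replicate 2, 26 without susceptible replicate 1 and 3084 without resistant replicate 3, and 58 with the covariate. The 333 became 1, 0, 4 and 1669 without those 4 arrays in turn, 1398 without susceptible replicate 2, and 11 without scaling, and the 1625 became 42, 10, 84 and 3020, and 4941 without scaling.

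Named genes with the smallest p in the test against the mean of the other 3 were ADR11, BZIP50, BZIP130, PAP and BZIP48. ADR11 stood 3.77 ± 0.65 further below 0 than in the other settings (adjusted p = 0.0119), where its differences were −0.59, −0.01 and −0.02. BZIP130 stood 1.11 ± 0.19 above them. PAP, read by 2 probe sets that both fell, was at 9.50, 9.20 and 9.84 against 11.44, 10.98 and 11.02 in uninfested leaves of day 1 (−1.64 ± 0.23). In the other settings its differences were −0.23, −0.07 and −0.18. By contrast SBPRP, the largest named fall, was at −3.55 ± 1.16 in uninfested leaves of day 7, and its test against the mean of the other 3 gave an adjusted p of 0.100.

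A small group of probe sets separated the cultivars in all 4 settings. It held 31 probe sets, 12 higher and 19 lower in resistant leaves, of which 8 had 1 annotated gene and 2 an informative name. The gap between their highest and lowest setting had a median of 0.517 and reached 1.64. They were chosen for a call in all 4 settings, so part of this evenness follows from the choice. The count was between 29 and 32 when any one of the 6 day 1 arrays was left out and 30 with the covariate, of which 28 were shared. It was 20 without scaling.

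The largest was LOC100526921, which read 5.51, 5.66 and 5.49 in resistant leaves and 12.15, 12.31 and 12.36 in susceptible leaves, a difference of −6.72 ± 0.15. Elsewhere it was −7.33, −7.13 and −7.11. The resistant level lay near the 5th percentile, so the size of the difference is not exact. Its neighbour in the RefSeq gene order on chromosome 2 is Rsv4, a gene known for resistance to soybean mosaic virus, with 0 annotated genes between them. Rsv4 moved the other way, at 11.60, 11.29 and 11.63 in resistant and 9.08, 8.27 and 8.65 in susceptible leaves (2.84 ± 0.21, adjusted p = 2.22e-07), and at 3.03, 3.42 and 3.48 in the other settings. LOC100775942, with 26 annotated genes between it and Rsv4, differed by 2.64 ± 0.20. Of the 26 genes between, 2 had a probe set, and 1 of these is LOC100526921 itself. The other had 2 probe sets, of which 0 were called in uninfested leaves of day 1.

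On chromosome 7, LOC100777129 (1.60 ± 0.15) and LOC100786039 (1.86 ± 0.16) were higher in resistant leaves in all 4 settings. They had 42 annotated genes between them, 3 of which had probe sets. Of those 5 probe sets 3 were called in uninfested leaves of day 1 and 0 in 3 or more settings. MET2 on the same chromosome read 12.18, 11.45 and 10.78 against 12.33, 12.50 and 12.67 (−1.03 ± 0.28, adjusted p = 0.0147) in 1 of its 5 probe sets, and lay at −1.47, −2.54 and −2.01 elsewhere. Its value on day 1 was the smallest of the 4. For all 31, a difference in transcript level and a difference in the probe's target sequence between cultivars cannot be told apart from these values.

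**Figure D5:**
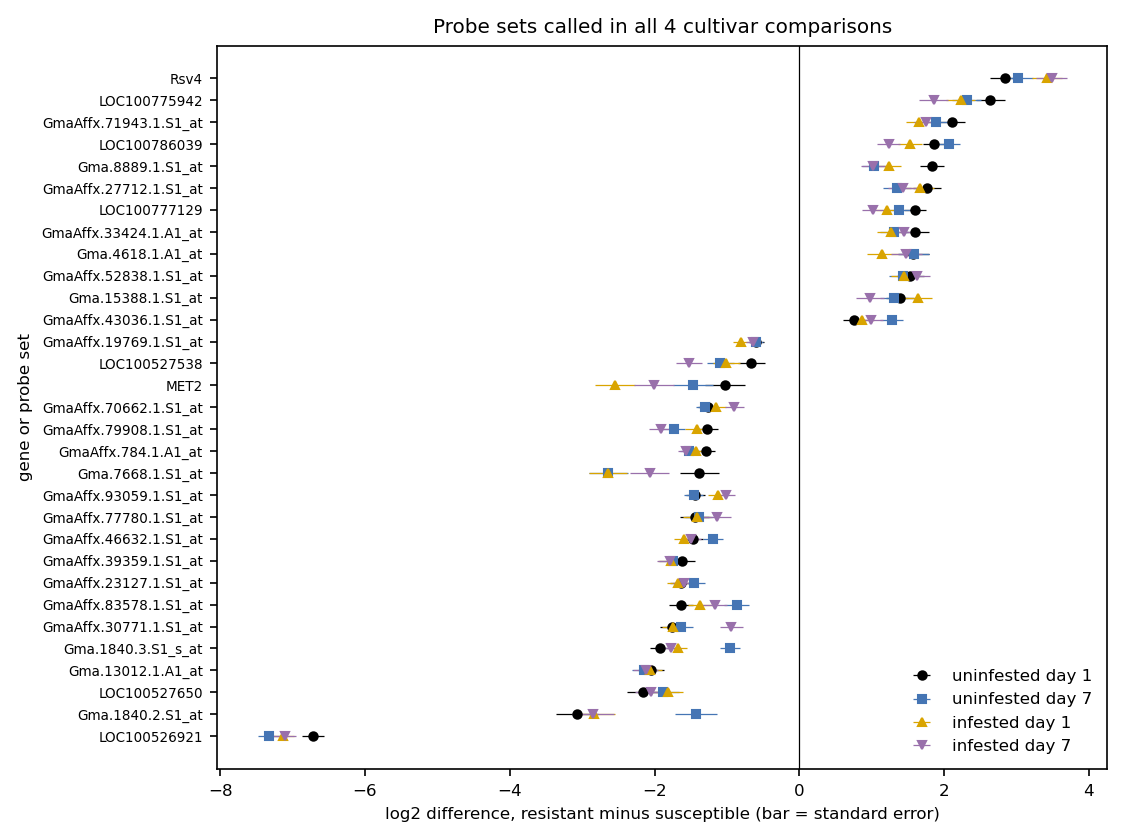
Rows are the 31 probe sets called in all 4 cultivar comparisons in one direction, by gene or probe set name. The horizontal axis is the log2 difference, resistant minus susceptible, with standard errors as bars, and symbols mark the 4 settings. The day 1 uninfested value (black) lies beside the other 3 in most rows, as for Rsv4 (2.84 against 3.03 to 3.48), while MET2 ranges from −2.54 to −1.03.

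Among probe sets without a gene name, the largest rise was that of Gma.3409.1.S1_at, at 14.22, 13.97 and 13.38 in resistant and 5.97, 10.82 and 11.10 in susceptible leaves (4.56 ± 0.94, adjusted p = 0.00359). Susceptible replicate 1 was again the low point, and without it the difference was 2.88 (adjusted p = 0.0178). Gma.11368.1.S1_at was more even, at 12.02, 11.19 and 10.30 against 7.33, 7.98 and 8.06. The largest falls were those of GmaAffx.941.2.S1_s_at (−4.80 ± 0.96) and Gma.16592.1.S1_at (−4.78 ± 0.88), in both of which resistant replicate 3 lay above the other resistant arrays.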

How the data were processed

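The deposited table held log2 values of 24 arrays. Its 37653 probe sets comprised 37593 for soybean and 60 controls. Per the labels, biotin-labelled total RNA was hybridised. The submitters' processing notes name RMA, GCRMA and limma without roles, and the way probe signals were combined is not stated there or in the labels. On the linear scale 99.6% of the deposited log2 values were whole within 0.01. No background estimate came with them. Soybean probe sets were quantile-normalized over all arrays and the 8 group means fitted with limma 3.58.1 in R 4.3.3 (residual degrees of freedom 16, prior 3.65). Benjamini-Hochberg adjustment was made within each contrast at 0.05. Residuals of all 24 arrays set the spread. The fit was tested on simulated data. The labels list replicates as separate samples, so p-values reflect the spread among those samples, part of which may be technical. Their numbers were not taken to pair them. The number of arrays limits the precision.

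The platform annotation gave 8677 probe sets 1 gene, 370 several and 28546 none. Of these, 8652 matched the RefSeq table of Glycine_max_v4.0, used for names and gene order, and 1880 probe sets of 1129 genes had an informative name. Members, gene lists and naming rule were chosen with earlier results of these data known. The rule named the 15 largest non-overlapping called rises and falls, informatively named genes called in all 4 settings, up to 2 genes above and 2 below 0 per list by smallest p, the 5 smallest p against the mean of the other 3 settings, and 2 unnamed probe sets each way. Further list members, LOC100526921 and its neighbours were chosen after their values were seen. Names matched wrongly by a list's pattern were dropped by gene identity, but PTS1 stayed in the list of phenylpropanoid entry and lignin. Medians use the probe set of highest mean per gene. The control transcripts' 3' minus 5' signal is a mean over their probe sets. Alternatives were other scalings, normexp correction with an offset of 50, filters, variance models, a replicate block, a 2-fold minimum, fewer arrays, a 3' minus 5' covariate and leaving out arrays. Planned promoter motifs were not run.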

Additional observations from a re-analysis of the deposited data

Results flagged for a closer look

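Each result here was marked because the day 1 uninfested cultivar difference departed, at an adjusted p under 0.05, from another setting or from the mean of the other 3. Over all probe sets these numbered 2045 against the mean of the other 3 settings, 1625 against infested leaves of day 7 and 333 against infested leaves of day 1. Against uninfested leaves of day 7 alone the number was 0, so no value below was shown to depart from that setting. WRKY22 and BZIP130 were called there in the same direction. The single values that follow are the day 1 difference minus the mean of the other 3, on the log2 scale. Below, the other settings stand for that mean.

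Growth, wall and water genes stood below the other settings, with GASA6 at −4.16, ADR11 at −3.77, PIP1-6 at −3.75, GASA14 at −3.07, GmTIP2;3 at −2.93, GASA3 at −2.86 and PIP1-4 at −1.37. Regulators below them were BZIP50, at −4.04 and −2.67 in its 2 probe sets, BZIP48 at −2.86 and RLK2 at −1.49. Other genes below them were CYP97C10 at −1.86, F3H at −1.77, PAP at −1.48, CHI3A1 at −1.23, SS at −0.90 and SWEET31 at −0.87.

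Regulators above the other settings were WRKY56 at 2.63, NAC34 at 2.30, SCOF-1 at 2.24, BZIP110 at 1.74, HSF-01 at 1.39, MYB75 at 1.19, BZIP130 at 1.11 and WRKY22 at 0.85. Kinase genes above them were SIK1 at 1.74 and CDPK at 1.06. The remaining named genes above them were LOX1.4 at 1.90 in 1 probe set, APX2 at 1.32, GDH1 at 1.25, SDP1-3 at 1.11, PM40 at 0.73 and GSTF5 at 0.65. Of probe sets without a gene name, Gma.3409.1.S1_at stood at 4.23, Gma.11368.1.S1_at at 2.94, GmaAffx.941.2.S1_s_at at −3.95 and Gma.16592.1.S1_at at −4.09. The count of such probe sets fell to 7, 11 or 26 without resistant replicate 1, resistant replicate 2 or susceptible replicate 1.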

How the results depend on the processing

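The day 1 uninfested count of 7027 probe sets was 4417 without scaling (747 lower), 4537 among brighter probe sets (2109 lower), 11448 with array weights (5884 higher, 5564 lower), 2456 with a 2-fold minimum (905 and 1551) and 1024 with the 3' minus 5' covariate (476 and 548). Leaving out one array gave 2240 to 7127 calls, 938 to 3437 higher and 1302 to 3690 lower. Of the 93 named probe sets called, 0 changed sign in these fits. Of the 15 largest named rises 1 passed with the covariate and 4 without susceptible replicate 1, and of the 15 largest falls 7 and 11. Deviations of same-numbered arrays correlated at −0.097, 0.136 and −0.057 in uninfested leaves of day 1 and −0.073, 0.071 and 0.126 in those of day 7. In infested leaves these were 0.436, 0.211 and 0.099 on day 1 and 0.379, −0.404 and 0.136 on day 7. The highest correlations with another number in infested leaves of day 1 were lower each time, at −0.219, 0.190 and −0.020. In no other setting was this so for every pair. Whether same-numbered arrays belong together was not tested. The replicate block gave 7512 calls, 110 in infested leaves of day 7 in place of 60, and 98 against infested leaves of day 1 in place of 333. Calls in the other settings without scaling were 339 in uninfested and 206 in infested leaves of day 7. Against the mean of the other 3 settings the count of 2045 was 58 with the covariate and ran from 7 to 3084 with one array left out. Against infested leaves of day 1 it was 11 without scaling, 0 with the covariate and 0 to 1669 with one array left out. Against infested leaves of day 7 it was 4941 without scaling and 10 to 3020 with one array left out. Against uninfested leaves of day 7 it was 48 without scaling and 0 to 44 with one array left out. The constant group of 31 was 20 without scaling, 12 among brighter probe sets, and 29 to 32 with one array left out. The single tests against each setting and the constant count were put through these alternatives after seeing the data. The cause of these shifts was not tested. Without a background estimate, levels near the low end have no exact fold.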
